A study of Mus musculus with 12 samples.

Results

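The genes described are 27 genes of the sterol regulatory element-binding protein 2 (SREBP2) pathway: 20 enzymes of sterol and prenyl diphosphate synthesis, 6 regulators of SREBP2 and the sterol carrier Stard4. They were chosen by name, and all 27 of 27 were found among the 54532 genes of the deposited count table and passed a filter on low counts, as did 15338 genes in all. No uptake receptor is among them. The RNA came from bone marrow-derived macrophages (BMDMs), cells matured in a dish out of mouse marrow. There were 4 groups of 3 libraries: Gpnmb R150X cells given oxidised low-density lipoprotein (OxLDL), WT cells given OxLDL, untreated R150X cells and untreated WT cells. Per the labels, mice of either genotype descended from DBA/2 crossed with C57BL/6 and then backcrossed to C57BL/6, and WT denotes their control mice. R150X is a premature stop in Gpnmb, which encodes a membrane glycoprotein made by lipid-loaded macrophages, and the series asked how GPNMB bears on foam cell formation. The OxLDL dose, its duration, the age of the mice and the source (animal, culture or pool) of the libraries within a group were not given in the labels. The p-values therefore measure only the spread between these libraries, which may be technical.

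SREBP2, encoded by Srebf2, is a transcription factor held in the membrane of the endoplasmic reticulum (ER) together with its escort SCAP. When ER cholesterol is low, SCAP carries SREBP2 to the Golgi, where the site-1 and site-2 proteases (Mbtps1 and Mbtps2) release the part that enters the nucleus and switches on the genes of cholesterol synthesis, and Srebf2 itself. When cholesterol is plentiful, the INSIG proteins hold SCAP in the ER and these genes are switched off. Macrophages that take up modified lipoprotein receive cholesterol from outside and are known to lower their own synthesis.

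Levels are in CPM, that is, counts divided by the scaled library total (trimmed-mean scaling), from libraries of 14838969 to 18222868 counts. A gene is called changed, and "rose" or "fell" is used, at an adjusted p under 0.05 over all 15338 genes in the quasi-likelihood test of edgeR (Benjamini-Hochberg), and fold changes are log2 with their SE. Gpnmb, the gene with the R150X stop, ran from 691 to 724 CPM in OxLDL-treated R150X libraries, against 12355 to 12615 CPM in OxLDL-treated WT libraries. It ran from 363 to 411 CPM in untreated R150X libraries, against 5305 to 5374 CPM in untreated WT libraries. All 8 macrophage markers were detected in every library. The untreated R150X replicate 1 stood apart from its group: the chi-square per degree of freedom of its counts was 9.23 against replicate 2 and 10.1 against replicate 3, while other replicate pairs ran from 2.31 to 4.76. Xist was at 228 CPM or more in every R150X library and at 2.75 CPM or less in every WT library, so a difference between genotypes cannot be told apart from one that goes with the sex of the cells. Of the members, Mbtps2, Nsdhl and Ebp are X-linked. Whether the genotypes also differ in DBA/2 sequence kept from the cross was not examined.

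With OxLDL, the sterol genes fell together in both genotypes. In R150X cells 20 of 27 members fell (20.6% of all genes tested were called lower) and 2 rose (18.4% called higher). In WT cells 17 of 27 fell (23.1% called lower) and 3 rose (22.7% called higher). The same 17 fell in both genotypes: Srebf2, Insig1, Acat2, Hmgcs1, Mvk, Mvd, Idi1, Fdps, Fdft1, Sqle, Lss, Cyp51, Msmo1, Nsdhl, Hsd17b7, Sc5d and Stard4. The median log2 fold change of the members was -1.17 in R150X cells, where the median of all genes was 0.0039, and -1.03 in WT cells, where it was 0.014. Of the members that fell, 15 of 20 in R150X cells and 14 of 17 in WT cells were at under 50% of their untreated level. The same share among all genes that fell was not counted. Without R150X replicate 1 the count of members called in R150X cells was 21, against 22, Acat1 no longer being called, as it was not without any other 1 of the 6 R150X libraries. Scaled by library size alone, 31.6% of all calls in WT cells were of genes that rose, against 49.6% with trimmed-mean scaling. In bulk RNA, fewer cells of a type and less RNA per cell cannot be told apart. The labels name no batch, so one that went with the treatment could not be told apart from OxLDL.

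Summed over the 27 genes, the level was 819 to 834 CPM in OxLDL-treated R150X libraries, against 1399 to 1420 CPM in untreated R150X libraries. It was 804 to 821 CPM in OxLDL-treated WT libraries, against 1244 to 1269 CPM in untreated WT libraries. Every OxLDL-treated library was below every untreated one in this sum.

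**Figure D1:**
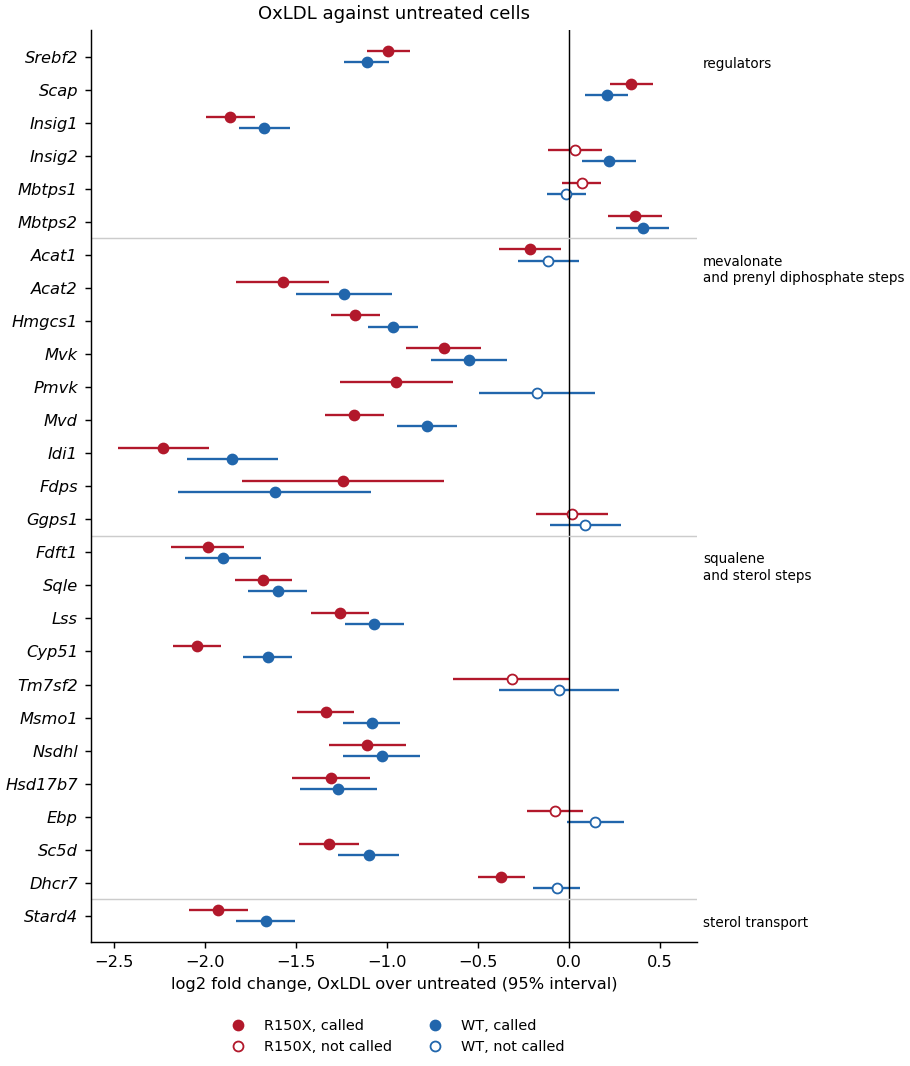
Log2 fold change of each of the 27 genes, OxLDL over untreated, in R150X cells (red, upper point of each gene) and WT cells (blue, lower point), with 95% intervals. Filled points passed the test and open points did not, and the genes are ordered by their role. Most sterol step genes sit between -0.5 and -2.3 in both genotypes, while Scap and Mbtps2 sit to the right of 0.

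The 5′ flanks of genes that fell together are shown for the 3 members whose promoter window held the letters TCACNCCA, part of the classic sterol regulatory element that SREBP binds. Windows run from 250 bases before to 50 bases after a RefSeq transcript start (GRCm38.p6), and 22 of the 27 members had one or more. Capitals mark the TCACNCCA match and the CCAAT boxes (CCAAT, or ATTGG on the other strand), where the factor NF-Y can bind beside SREBP. The Hmgcs1 window is chr13:119690101-119690400 (plus strand), that of Srebf2 chr15:82147019-82147318 (plus strand) and that of Msmo1 chr8:64733529-64733828 (minus strand), each written 5′ to 3′ on the strand of its gene.
Hmgcs1: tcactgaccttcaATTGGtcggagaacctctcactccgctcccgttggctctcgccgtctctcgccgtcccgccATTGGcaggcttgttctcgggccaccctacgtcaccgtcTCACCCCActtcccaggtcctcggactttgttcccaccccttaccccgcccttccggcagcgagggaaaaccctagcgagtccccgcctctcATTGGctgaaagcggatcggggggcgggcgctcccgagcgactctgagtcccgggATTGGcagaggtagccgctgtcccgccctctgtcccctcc
Srebf2: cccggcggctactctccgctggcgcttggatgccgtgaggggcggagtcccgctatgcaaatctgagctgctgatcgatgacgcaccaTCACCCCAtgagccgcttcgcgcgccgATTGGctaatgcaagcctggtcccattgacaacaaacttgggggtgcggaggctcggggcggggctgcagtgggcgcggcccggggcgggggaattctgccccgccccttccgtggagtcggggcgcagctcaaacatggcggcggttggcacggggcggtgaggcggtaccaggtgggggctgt
Msmo1: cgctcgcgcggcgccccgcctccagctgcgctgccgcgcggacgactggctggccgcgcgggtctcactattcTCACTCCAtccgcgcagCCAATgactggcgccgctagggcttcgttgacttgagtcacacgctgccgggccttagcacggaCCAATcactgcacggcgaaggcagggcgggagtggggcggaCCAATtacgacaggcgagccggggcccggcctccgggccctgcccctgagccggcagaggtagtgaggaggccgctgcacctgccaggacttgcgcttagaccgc
The match began at position -137 from the start in Hmgcs1, at -162 in Srebf2 and at -177 in Msmo1. Searched on both strands, TCACNCCA was in 3 of 28 member windows (10.7%), against 4.36% of all 32851 RefSeq windows. CCAAT was in 64.3% of member windows, against 37.4% of all windows, and the GC box GGGCGG in 78.6%, against 35.7%. Among the 13 windowed members that fell in both genotypes, 3 had TCACNCCA in any of their windows, 12 had CCAAT and 13 had GGGCGG, and among the 9 other windowed members 0, 6 and 6 did. These are matches of letters, and no match says only that the letters are not in the window. Stard4, Fdps, Fdft1, Acat1 and Sqle had no window.

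The 3 genes whose windows are printed all fell in both genotypes. The Hmgcs1 enzyme condenses acetyl-CoA and acetoacetyl-CoA into HMG-CoA, and its gene averaged 43.8 ± 3.24 CPM in OxLDL-treated R150X cells and 98.9 ± 5.94 CPM in untreated ones (SD, n = 3 each). The WT average was 42.7 ± 2.84 CPM with OxLDL and 83.5 ± 1.55 CPM without (SD, n = 3 each). The log2 fold change was -1.17 (SE 0.0647, adjusted p = 2.42e-12) in R150X cells and -0.97 (SE 0.0655, adjusted p = 6.99e-11) in WT cells. The gene Gm48342 overlaps 12.1% of the exon bases of Hmgcs1 on the opposite strand. Msmo1, the sterol C4-methyl oxidase, fell at -1.34 (SE 0.0746, adjusted p = 3.03e-12) in R150X cells and -1.08 (SE 0.0756, adjusted p = 1.13e-10) in WT cells.

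Among the regulators, the transcription factor gene fell itself. Srebf2 (ENSMUSG00000022463, chr15:82147181-82205379, plus strand) had 101, 103 and 113 CPM in OxLDL-treated R150X cells, against 198, 209 and 222 CPM in untreated R150X cells. WT cells had 82.1, 88.6 and 91.5 CPM with OxLDL, against 185, 189 and 193 CPM without. All 6 OxLDL-treated libraries were below all 6 untreated ones, with R150X above WT within either condition. This came to a log2 change of -0.99 (SE 0.0575, adjusted p = 5.87e-12) in R150X cells and -1.11 (SE 0.0583, adjusted p = 9.87e-13) in WT cells, which left 50.3% of the untreated level in R150X cells and 46.3% in WT cells.

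The SREBP target Insig1, which retains SCAP in the ER, also fell. Insig1 (ENSMUSG00000045294, chr5:28071363-28078662, plus strand) had 24.3, 26.3 and 28.0 CPM in OxLDL-treated R150X cells, against 94.9, 93.8 and 97.0 CPM in untreated R150X cells. The WT libraries had 21.2, 22.2 and 23.2 CPM with OxLDL, against 75.2, 66.0 and 70.7 CPM without. The groups did not overlap, and the untreated R150X libraries were the highest of the 12. The log2 fold change was -1.86 (SE 0.0648, adjusted p = 9.6e-16) in R150X cells and -1.67 (SE 0.0675, adjusted p = 1.15e-14) in WT cells.

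Its paralog Insig2, known to be less dependent on SREBP, was not called lower in either genotype. Insig2 averaged 38.2 ± 3.36 CPM in OxLDL-treated R150X cells and 37.4 ± 1.22 CPM in untreated ones, which at 0.032 (adjusted p = 0.757) on the log2 scale did not pass. It averaged 40.9 ± 2.47 CPM in OxLDL-treated WT cells and 35.2 ± 1.42 CPM in untreated ones (SD, n = 3 each), and rose there by 0.22 (adjusted p = 0.0156). This call was lost without untreated WT replicate 1 or 3 or the OxLDL-treated WT replicate 1 (adjusted p of 0.0567, 0.0575 and 0.0918), and with scaling by library size alone, where the value was 0.11 (adjusted p = 0.24). The interaction between genotype and OxLDL was not called for Insig2 (adjusted p = 0.29). Per kilobase of exon, Insig1 stood at 0.664, 0.757 and 0.909 times the level of Insig2 in OxLDL-treated R150X libraries, against 2.75, 2.90 and 2.92 times in untreated R150X libraries. In WT libraries it stood at 0.546, 0.614 and 0.673 times with OxLDL, against 2.45, 2.01 and 2.31 times without. Insig1 was thus the more abundant of the pair in every untreated library and the less abundant in every OxLDL-treated one.

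The escort and the site-2 protease rose in both genotypes. Scap (ENSMUSG00000032485, chr9:110333288-110384950, plus strand) had 89.7, 94.3 and 91.2 CPM in OxLDL-treated R150X cells, against 71.9, 71.9 and 73.3 CPM in untreated R150X cells. The values in WT cells were 75.3, 78.9 and 87.3 CPM with OxLDL, against 70.0, 71.1 and 67.8 CPM without. Every treated library was above every untreated one, and the log2 fold change was 0.34 (SE 0.0562, adjusted p = 4.43e-05) in R150X cells and 0.21 (SE 0.0566, adjusted p = 0.00482) in WT cells. Scaled by library size alone, the WT value was 0.094 and did not pass (adjusted p = 0.188). Mbtps2 averaged 57.9 ± 0.758 CPM in OxLDL-treated R150X cells and 45.0 ± 2.96 CPM in untreated ones (SD, n = 3 each), and rose by 0.36 (SE 0.0709, adjusted p = 0.000322). In WT cells it rose by 0.40 (SE 0.0705, adjusted p = 6.85e-05). Exons of Yy2 cover 28.4% of the exon bases of Mbtps2 and a clone gene overlaps 13.2% of those of Scap, so reads there cannot be assigned with certainty. The site-1 protease Mbtps1 was not called, at 0.070 (adjusted p = 0.31) in R150X cells and -0.016 (adjusted p = 0.823) in WT cells.

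The mevalonate steps fell in most members. Of 9 genes from acetyl-CoA to the prenyl diphosphates, 8 fell in R150X cells and 6 in WT cells, and 0 rose in either. Idi1, which isomerises isopentenyl diphosphate, averaged 3.82 ± 0.400 CPM in OxLDL-treated R150X cells and 18.0 ± 0.785 CPM in untreated ones (SD, n = 3 each). The WT mean was 4.36 ± 0.463 CPM with OxLDL and 15.8 ± 1.24 CPM without (SD, n = 3 each). Log2 fold changes were -2.23 (SE 0.119, adjusted p = 1.4e-12) in R150X cells and -1.85 (SE 0.119, adjusted p = 2.96e-11) in WT cells. This was the lowest value of any member in R150X cells and the second lowest in WT cells after Fdft1. The Idi1 transcript matches 3 other annotated genes at 95% identity or more, over up to 684 bases.

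Acat2, the cytosolic acetoacetyl-CoA thiolase of this pathway, fell at -1.57 (SE 0.123, adjusted p = 9.34e-10) in R150X cells and -1.23 (SE 0.126, adjusted p = 5.02e-08) in WT cells. Acat1, the mitochondrial thiolase that also serves ketone body and isoleucine metabolism, was at -0.22 (adjusted p = 0.0419) in R150X cells and -0.11 (adjusted p = 0.267) in WT cells. Its call in R150X cells was lost without any one of the 6 R150X libraries (adjusted p of 0.0534 to 0.158) and with DESeq2 (0.0574). The kinase gene Mvk fell at -0.69 (SE 0.0985, adjusted p = 8.1e-06) in R150X cells and -0.55 (SE 0.101, adjusted p = 0.000122) in WT cells. Fdps, the farnesyl diphosphate synthase, lay at only 0.944 ± 0.201 CPM in OxLDL-treated R150X cells and 2.24 ± 0.196 CPM in untreated ones (SD, n = 3 each), and fell at -1.24 (SE 0.266, adjusted p = 0.000763). In WT cells it averaged 1.03 ± 0.330 CPM with OxLDL and 3.15 ± 0.266 CPM without (SD, n = 3 each), and fell at -1.62 (SE 0.254, adjusted p = 2.01e-05). Its transcript matches 6 other annotated genes at 95% identity or more, over up to 1066 bases, so its low count is uncertain. Ggps1, which makes the geranylgeranyl diphosphate used outside the sterol branch, was not called at 0.017 (adjusted p = 0.912) in R150X cells and 0.089 (adjusted p = 0.467) in WT cells.

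The genes of the squalene and sterol steps showed the same fall with 2 or 3 exceptions. Of these 11 genes, 9 fell in R150X cells and 8 in WT cells, and 0 rose. Sqle, the squalene epoxidase and a rate-controlling enzyme of the pathway (ENSMUSG00000022351, chr15:59315077-59331192, plus strand), had 22.7, 21.4 and 19.2 CPM in OxLDL-treated R150X cells, against 70.3, 69.5 and 63.1 CPM in untreated R150X cells. In WT cells it had 16.2, 18.6 and 15.6 CPM with OxLDL, against 49.8, 52.1 and 51.0 CPM without. The treated and untreated libraries were far apart, and within either condition each R150X library lay above each WT library. On the log2 scale the change was -1.68 (SE 0.0744, adjusted p = 5.74e-14) in R150X cells and -1.60 (SE 0.0784, adjusted p = 3.11e-13) in WT cells.

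Cyp51, the lanosterol 14-alpha-demethylase, had the smallest adjusted p of all members in both genotypes. Cyp51 (ENSMUSG00000001467, chr5:4081145-4104746, minus strand) had 19.8, 18.0 and 19.6 CPM in OxLDL-treated R150X cells, against 78.9, 79.8 and 77.9 CPM in untreated R150X cells. WT cells had 20.9, 18.8 and 21.6 CPM with OxLDL, against 65.5, 63.6 and 64.3 CPM without. With OxLDL the genotypes overlapped, and without it every R150X library was above every WT library. The log2 fold change was -2.04 (SE 0.0634, adjusted p = 1.29e-16) in R150X cells and -1.66 (SE 0.0639, adjusted p = 5.39e-15) in WT cells.

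Fdft1, the squalene synthase at the entry to the sterol branch, averaged 8.99 ± 1.03 CPM in OxLDL-treated R150X cells and 35.6 ± 2.91 CPM in untreated ones (SD, n = 3 each). It fell at -1.98 (SE 0.0967, adjusted p = 2.86e-13) in R150X cells and -1.90 (SE 0.10, adjusted p = 1.01e-12) in WT cells. Ctsb overlaps 18.3% of its exon bases on the opposite strand. The strand setting of the counting was not given, so reads of the pair cannot be told apart there. Ctsb and Gm6781 match the Fdft1 transcript at 95% identity or more, over up to 1249 bases. Lss, which closes the ring to lanosterol, fell at -1.26 (SE 0.0768, adjusted p = 1.48e-11) in R150X cells and -1.07 (SE 0.0781, adjusted p = 2.41e-10) in WT cells. Genes of the later demethylation, reduction and desaturation steps fell as well. Nsdhl was at -1.11 (adjusted p = 1.11e-08) in R150X cells and -1.03 (adjusted p = 3.23e-08) in WT cells, and Hsd17b7 at -1.31 (adjusted p = 9.34e-10) in R150X cells and -1.27 (adjusted p = 1.18e-09) in WT cells. The desaturase gene Sc5d was at -1.32 (adjusted p = 1.07e-11) in R150X cells and -1.10 (adjusted p = 2.19e-10) in WT cells.

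The exceptions were Ebp and Tm7sf2 and, in WT cells, Dhcr7. Ebp, the sterol isomerase, averaged 34.1 ± 0.438 CPM in OxLDL-treated R150X cells and 36.0 ± 2.68 CPM in untreated ones (SD, n = 3 each), and was not called at -0.075 (adjusted p = 0.457). In WT cells it was not called at 0.14 (adjusted p = 0.129). The C14-sterol reductase gene Tm7sf2 was at -0.31 (adjusted p = 0.116) in R150X cells and -0.054 (adjusted p = 0.809) in WT cells. Without R150X OxLDL replicate 3 it fell in R150X cells, at -0.53 (adjusted p = 0.00849). Dhcr7, which reduces dehydrocholesterol to cholesterol, fell in R150X cells at -0.37 (adjusted p = 5.41e-05) and was not called in WT cells at -0.067 (adjusted p = 0.401).

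Stard4, a carrier that moves sterol between membranes and a known SREBP target, fell in both genotypes. Stard4 (ENSMUSG00000024378) had 11.2, 12.2 and 12.2 CPM in OxLDL-treated R150X cells, against 46.4, 45.5 and 43.5 CPM in untreated R150X cells. The WT libraries had 14.9, 13.6 and 12.2 CPM with OxLDL, against 42.7, 44.5 and 42.2 CPM without. No treated library overlapped an untreated one, and the highest treated value was in a WT library. The fitted log2 fold changes were -1.93 (SE 0.0781, adjusted p = 1.22e-14) in R150X cells and -1.66 (SE 0.0775, adjusted p = 1.29e-13) in WT cells.

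**Figure D2:**
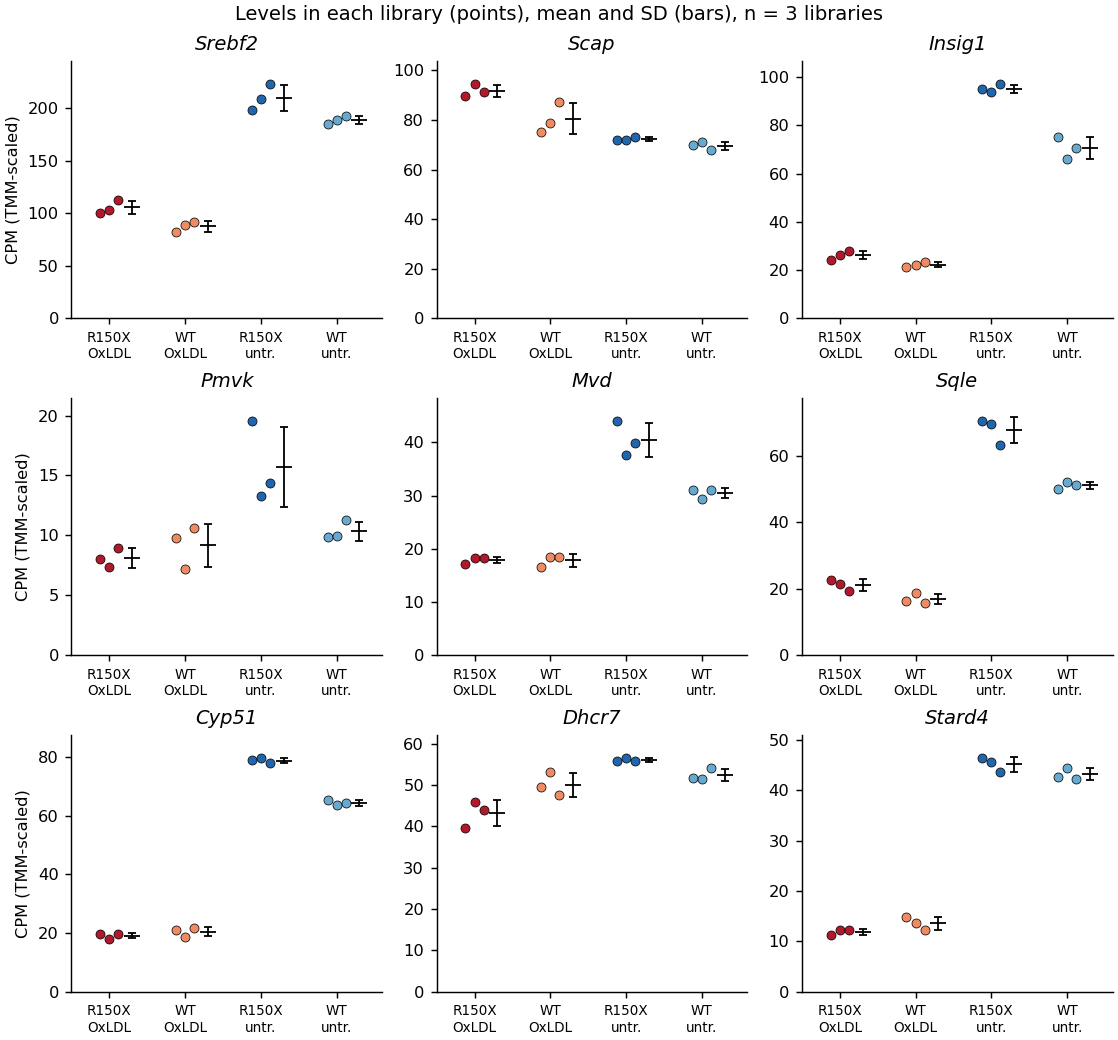
CPM of 9 members in each of the 12 libraries (points, 3 per group) with the mean and SD beside them, from left to right in R150X and WT cells with OxLDL and in R150X and WT cells without. Every axis starts at 0. Srebf2, Insig1, Mvd, Sqle, Cyp51 and Stard4 are lower with OxLDL in every library, Scap is higher, and Pmvk and Dhcr7 overlap between treated and untreated WT libraries.

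Compared per kilobase of exon, the order of the members changed with treatment. The length used was that of all annotated exon bases of a gene together. This can far exceed the longest coding transcript, at 10539 against 4336 bases in Mbtps1 and 6144 against 2044 in Msmo1. The place of a gene among the members therefore depends on the length chosen. In untreated R150X cells the highest means were Insig1 at 30.8 CPM per kb, Srebf2 at 29.2 and Mvd at 21.8. In untreated WT cells they were Srebf2 at 26.3 CPM per kb, Insig1 at 22.8 and Hmgcs1 at 18.2. With OxLDL the highest were Ebp at 14.8, Srebf2 at 14.7 and Scap at 12.3 CPM per kb in R150X cells, and Ebp at 14.2, Srebf2 at 12.2 and Insig2 at 11.8 CPM per kb in WT cells. Fdps was lowest in every group, at 0.224, 0.244, 0.532 and 0.749 CPM per kb in R150X with OxLDL, WT with OxLDL, untreated R150X and untreated WT cells.

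**Figure D3:**
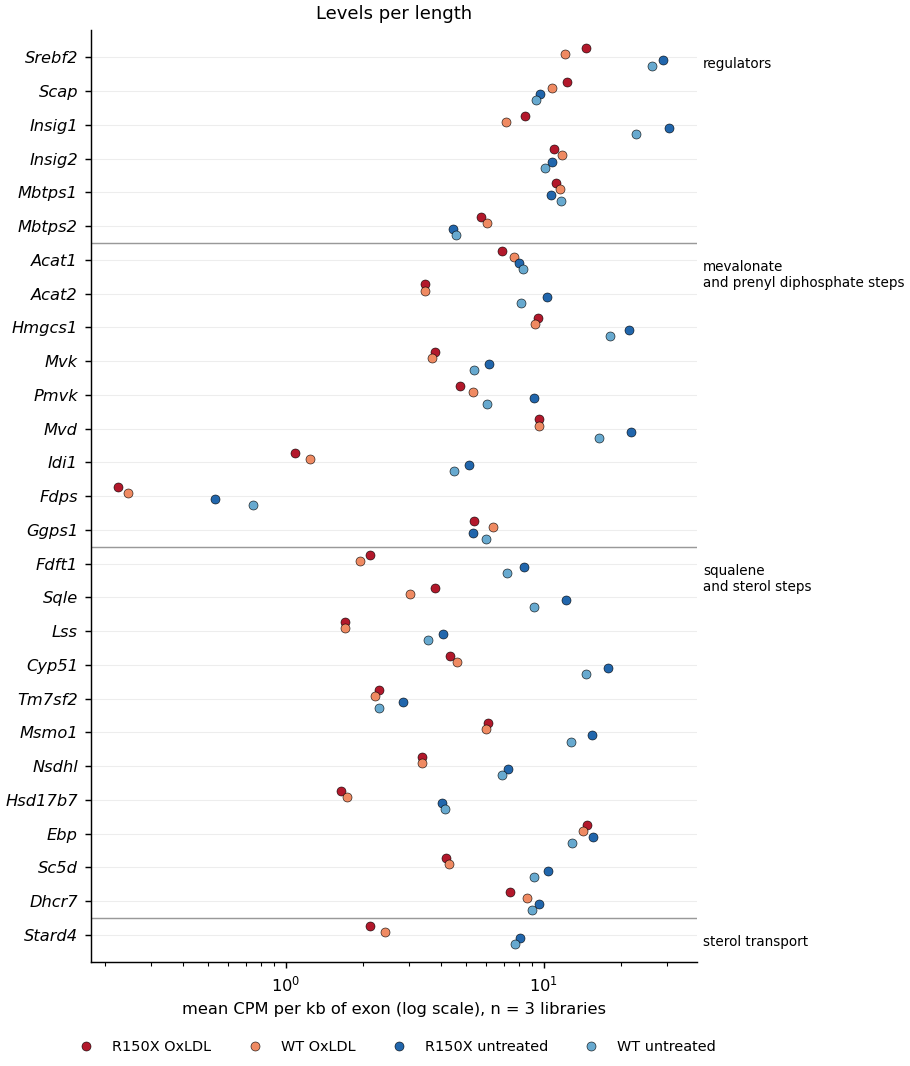
Mean level of each member in CPM per kilobase of exon, on a log axis, in the 4 groups (3 libraries each). The OxLDL-treated groups (red and orange) lie left of the untreated groups (blue) for most sterol step genes and together with them for Insig2, Mbtps1, Ggps1 and Ebp.

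Whether the response to OxLDL differed between genotypes was tested with the interaction, the log2 fold change in R150X cells minus that in WT cells. It was negative and called for 4 of 27 members (5.19% of all genes were called lower), namely Cyp51, Pmvk, Mvd and Dhcr7, and positive and called for 0 (3.13% called higher). The median over the members was -0.19, and that of all genes was -0.017. Negative interactions were not limited to sterol genes: 7 of 8 macrophage markers (median -0.37) and 5 of 7 neutrophil markers (median -0.76) were also called lower, and their part in the members' values was not tested. Scaled by library size alone the members' median was -0.096 and that of all genes 0.074, a difference of -0.17 under either scaling. With that scaling 66.5% of all calls were positive, against 37.6% with trimmed-mean scaling. The interaction uses the same libraries as the other comparisons and is no separate evidence for them.

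Cyp51 carried the smallest adjusted p. Its interaction was -0.39 (SE 0.0909, adjusted p = 0.00938), with a 95% interval of -0.58 to -0.20. In the libraries given above, the untreated R150X libraries lay above the untreated WT libraries, and the treated libraries of both genotypes overlapped.

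Pmvk, the phosphomevalonate kinase (ENSMUSG00000027952, chr3:89454541-89469013, plus strand), had 8.03, 7.32 and 8.95 CPM in OxLDL-treated R150X cells, against 19.5, 13.2 and 14.3 CPM in untreated R150X cells. The values in WT cells were 9.77, 7.15 and 10.6 CPM with OxLDL, against 9.86, 9.92 and 11.3 CPM without. The untreated R150X libraries were the 3 highest, replicate 1 well above the others. The OxLDL-treated WT libraries overlapped both the OxLDL-treated R150X and the untreated WT libraries, which did not overlap each other. Pmvk fell with OxLDL in R150X cells at -0.95 (SE 0.149, adjusted p = 2.59e-05), was not called in WT cells at -0.17 (adjusted p = 0.376), and its interaction was -0.77 (SE 0.214, adjusted p = 0.0279). Without R150X replicate 1, the library that stood apart, the interaction was -0.59 and did not pass (adjusted p = 0.0597).

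Mvd, the mevalonate diphosphate decarboxylase (ENSMUSG00000006517, chr8:122433601-122443422, minus strand), had 17.1, 18.2 and 18.3 CPM in OxLDL-treated R150X cells, against 44.0, 37.7 and 39.9 CPM in untreated R150X cells. In WT cells it had 16.5, 18.4 and 18.5 CPM with OxLDL, against 31.0, 29.4 and 31.0 CPM without. The treated libraries of both genotypes shared one range, and the untreated R150X libraries were above the untreated WT libraries. The log2 fold change was -1.18 (SE 0.0776, adjusted p = 5.17e-11) in R150X cells and -0.78 (SE 0.0796, adjusted p = 5.13e-08) in WT cells, and the interaction was -0.40 (SE 0.112, adjusted p = 0.029). Without R150X replicate 1 the interaction was -0.33 and did not pass (adjusted p = 0.0628), nor did it with library size alone (-0.31, adjusted p = 0.0887).

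Dhcr7 (ENSMUSG00000058454, chr7:143823145-143848410, plus strand) had 39.7, 46.0 and 44.1 CPM in OxLDL-treated R150X cells, against 55.8, 56.6 and 55.8 CPM in untreated R150X cells. WT cells had 49.4, 53.1 and 47.6 CPM with OxLDL, against 51.7, 51.5 and 54.1 CPM without. The treated R150X libraries were the 3 lowest of the 12 and the untreated R150X libraries the 3 highest. This gave, on the log2 scale, -0.37 (SE 0.0622, adjusted p = 5.41e-05) in R150X cells and -0.067 (adjusted p = 0.401) in WT cells, and the interaction was -0.31 (SE 0.0878, adjusted p = 0.0347). Scaled by library size alone, Dhcr7 was called lower in WT cells at -0.18 (adjusted p = 0.0217), and its interaction of -0.21 did not pass (adjusted p = 0.147). With all genes kept, however low, the interaction did not pass either (adjusted p = 0.0544).

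The interaction calls other than that of Cyp51 depended on single libraries. Pmvk was not called without 7 of the 12 libraries taken singly (adjusted p of 0.0561 to 0.0841), Mvd without 6 (0.052 to 0.0768) and Dhcr7 without 6 (0.0542 to 0.107). The count was 1 without untreated WT replicate 2 or OxLDL-treated R150X replicate 1, and 2 without WT replicate 1, WT OxLDL replicate 1 or 2, R150X replicate 1 or R150X OxLDL replicate 2. Cyp51 was the only member called with every library left out in turn and under every other setting tried. For the 15 members that fell in both genotypes and were not called here, the interaction does not show that the responses were alike: for Sqle its 95% interval was -0.31 to 0.15, for Insig1 -0.38 to 0.0086 and for Srebf2 -0.050 to 0.29.

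**Figure D4:**
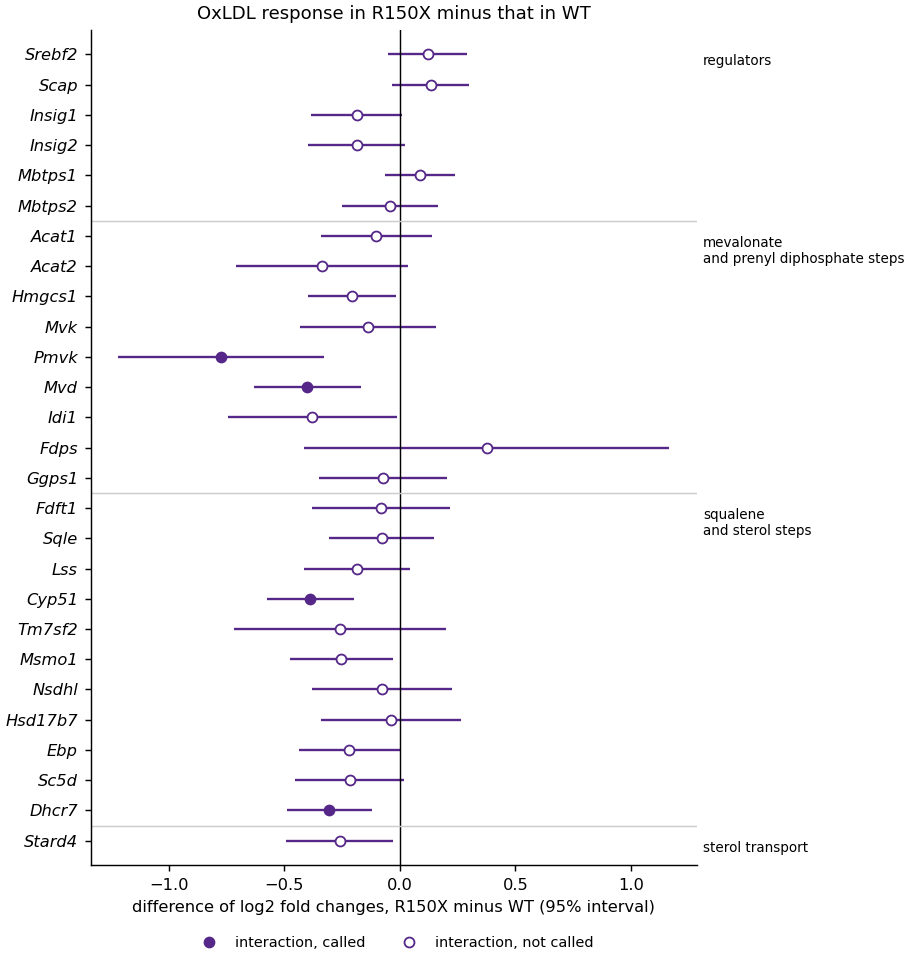
Difference in log2 fold change with OxLDL, R150X minus WT, for each of the 27 genes with its 95% interval. Filled points passed the test: Pmvk, Mvd, Cyp51 and Dhcr7, all to the left of 0.

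Between untreated cells, the sterol genes were modestly higher in R150X than in WT. In untreated R150X cells 11 of 27 members rose relative to WT (18.1% of all genes were called higher) and 1 fell (14.8% called lower). The 11 were Srebf2, Insig1, Acat2, Hmgcs1, Pmvk, Mvd, Sqle, Lss, Cyp51, Msmo1 and Ebp, and the 1 was Mbtps1. The median over the members was 0.18 and that of all genes was 0.010. Such rises were not limited to the members. Of the 45 tested genes of the neighbouring lists given below, 17 rose and 1 fell (median 0.11). Of the 8 macrophage markers 4 rose and 1 fell (median 0.13), and their part in the members' values was not tested. Scaled by library size alone the medians were 0.11 and -0.066, a difference of 0.17 under either scaling, and 36.1% of all calls were of genes that rose, against 55.0% with trimmed-mean scaling. The count of members called was 7 without WT replicate 2, against 12 with all libraries, and 11 without R150X replicate 1, when Mbtps1 was not called. The call of Mbtps1 was also lost without R150X replicate 2 or without any 1 of the 3 WT libraries (adjusted p of 0.0882 to 0.127 over the 5).

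By role, the regulators Srebf2 and Insig1 rose, 4 of 9 mevalonate step genes rose, and 5 of 11 squalene and sterol step genes rose. Insig1, with the smallest adjusted p, was 94.9, 93.8 and 97.0 CPM in untreated R150X cells, against 75.2, 66.0 and 70.7 CPM in untreated WT cells, higher by 0.43 (SE 0.0587, adjusted p = 9.56e-06). Sqle followed at 0.41 (SE 0.0676, adjusted p = 9.8e-05), Mvd at 0.41 (SE 0.0728, adjusted p = 0.000202) and Cyp51 at 0.29 (SE 0.0558, adjusted p = 0.00043). In all 4 genes the 3 R150X libraries lay above the 3 WT libraries. The same held for Scap, Mvk, Idi1, Fdft1, Sc5d and Dhcr7, which were not called, and the share over all genes was not counted. Pmvk had the highest log2 fold change of the members, 0.59 (SE 0.142, adjusted p = 0.00302), and the widest spread among those called.

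Hmgcs1 was higher at 0.24 (SE 0.0613, adjusted p = 0.00438) and Msmo1 at 0.27 (SE 0.0699, adjusted p = 0.00507). These, with Insig1, Pmvk, Mvd, Sqle and Cyp51, were the 7 members called under every setting and with every library left out in turn. Ebp averaged 36.0 ± 2.68 CPM in untreated R150X cells and 29.7 ± 2.57 CPM in untreated WT cells (SD, n = 3 each), at 0.27 (SE 0.0740, adjusted p = 0.00706), and was not called without WT replicate 2 (0.21, adjusted p = 0.0567). As Ebp is X-linked and the genotypes differ in Xist, an effect of the genotype cannot be told apart from one of sex here. The other X-linked members were not called, Mbtps2 at -0.033 (adjusted p = 0.757) and Nsdhl at 0.085 (adjusted p = 0.509).

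The remaining calls were less stable. Srebf2 was higher at 0.15 (SE 0.0559, adjusted p = 0.0425), and missed the threshold without any of the 3 WT libraries or R150X replicate 2 or 3 (adjusted p of 0.0682 to 0.189) and when scaled by library size alone (0.076, adjusted p = 0.327). It also missed it with median-of-ratios scaling (0.0524), without a filter (0.0677) and with only the groups compared in the fit (0.0809). Lss, at 0.20 (SE 0.0708, adjusted p = 0.0388), missed it without the same 5 libraries (adjusted p of 0.0729 to 0.154) and with library size alone (0.12, adjusted p = 0.21). It also missed it without a filter (adjusted p = 0.0931), with DESeq2 (0.0683) and with only the groups compared in the fit (0.0681). Acat2, at 0.34 (SE 0.110, adjusted p = 0.0224), missed it without either of WT replicates 2 and 3 or R150X replicate 3 (adjusted p of 0.0531 to 0.162) or with library size alone (0.0707), and Acat3 and Tcp1 share up to 1477 bases with it at 95% identity or more. Mbtps1 averaged 112 ± 5.84 CPM in untreated R150X cells and 123 ± 1.04 CPM in untreated WT cells (SD, n = 3 each), at -0.14 (SE 0.0512, adjusted p = 0.0459), and missed it without the 5 libraries given above and without a filter (adjusted p = 0.0713).

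The members not called in this comparison lay between -0.49 for Fdps (adjusted p = 0.0912) and 0.30 for Tm7sf2 (adjusted p = 0.134). Just short of a call were Fdft1 at 0.22 (adjusted p = 0.052) and Sc5d at 0.18 (adjusted p = 0.0591). Idi1 and Mvk were at 0.19 (adjusted p = 0.147) and 0.18 (adjusted p = 0.147), Dhcr7 at 0.10 (adjusted p = 0.235), Stard4 at 0.066 (adjusted p = 0.484) and Scap at 0.056 (adjusted p = 0.479). Insig2, Acat1, Ggps1 and Hsd17b7 were at 0.088 (adjusted p = 0.361), -0.047 (adjusted p = 0.687), -0.17 (adjusted p = 0.173) and -0.036 (adjusted p = 0.799).

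With OxLDL in both arms, few members differed between genotypes. In OxLDL-treated R150X cells 4 of 27 members rose relative to WT (6.1% of all genes were called higher) and 1 fell (6.92% called lower). The median over the members was 0.0024 and that of all genes was 0.0020. Srebf2 had the smallest adjusted p, at 101, 103 and 113 CPM in OxLDL-treated R150X cells, against 82.1, 88.6 and 91.5 CPM in OxLDL-treated WT cells. The libraries did not overlap, and the log2 fold change was 0.27 (SE 0.0592, adjusted p = 0.0031). Sqle was higher at 0.33 (SE 0.0857, adjusted p = 0.0126), Scap at 0.19 (SE 0.0562, adjusted p = 0.0278) and Insig1 at 0.24 (SE 0.0735, adjusted p = 0.0312), and Dhcr7 was lower at -0.21 (SE 0.0633, adjusted p = 0.032). The libraries did not overlap in these genes, nor in Stard4, which was not called at -0.20 (adjusted p = 0.173). The share of all genes without overlap was not counted.

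Only the Srebf2 call held under every setting and with every library left out in turn. The count of members called was 1 without WT OxLDL replicate 1, 2 without WT OxLDL replicate 2 or R150X OxLDL replicate 3, and 3 without R150X OxLDL replicate 1 or 2. Insig1 was not called with only the groups compared in the fit (adjusted p = 0.0595). The mevalonate step genes had 0 calls of 9, at log2 fold changes of -0.24 to 0.042. The members that rose in R150X in both conditions were Srebf2, Insig1 and Sqle, which is 3 of the 11 that rose in untreated cells and 3 of the 4 that rose with OxLDL. None of the 3 held in both conditions when single libraries were left out. Srebf2 was lost in untreated cells, and with OxLDL Insig1 (adjusted p of 0.0879 to 0.156) and Sqle (0.0614 to 0.0682) were. The share of all genes that rose in both conditions was not counted.

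**Figure D5:**
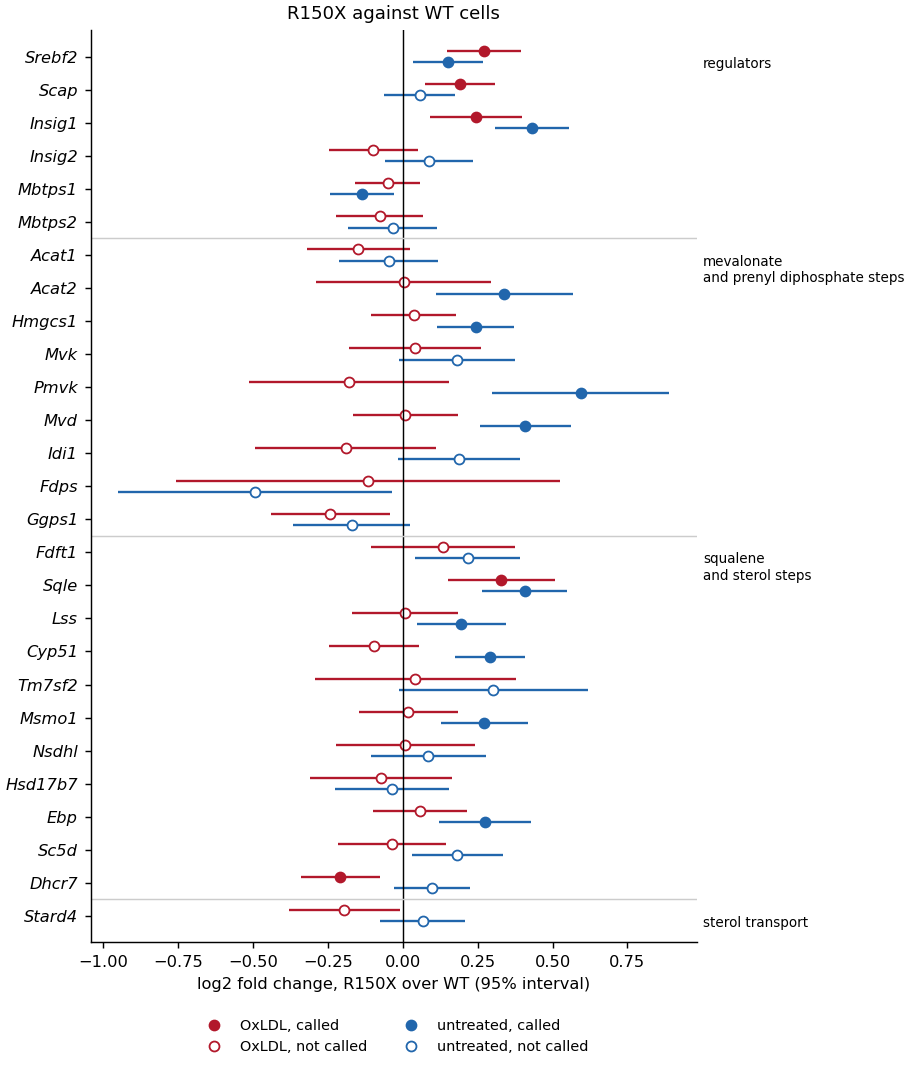
Log2 fold change of each of the 27 genes, R150X over WT, in OxLDL-treated cells (red, upper point of each gene) and untreated cells (blue, lower point), with 95% intervals. Filled points passed the test and open points did not. Most blue points lie right of 0. The red points of the mevalonate and sterol step genes run from -0.24 for Ggps1 to 0.33 for Sqle. Of these red points, only those of Sqle and Dhcr7 are filled.

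Markers of other cell types differed between the same groups. The 6 fibroblast and stroma markers were all detected in every library. With OxLDL they summed to 4507 to 4771 CPM in R150X libraries and 5298 to 5924 CPM in WT libraries. Without it they summed to 7511 to 7541 CPM in R150X libraries and 11908 to 12002 CPM in WT libraries. Most of that sum was Col1a1 and Col1a2. In untreated R150X against untreated WT cells 4 of the 6 were called lower, Lum was called higher at 0.74 and Pdgfra was not called. With OxLDL 4 fell in R150X cells and 3 in WT cells, and 0 rose. The 7 neutrophil markers summed to 36.7 to 38.2 CPM in OxLDL-treated R150X, 118 to 136 CPM in OxLDL-treated WT, 189 to 205 CPM in untreated R150X and 416 to 440.5 CPM in untreated WT libraries, all 7 with at least 3 counts in each WT library and 6 in each R150X library. The 6 osteoclast markers summed to 156 to 163 CPM in OxLDL-treated R150X, 129 to 143 CPM in OxLDL-treated WT, 451 to 470.0 CPM in untreated R150X and 275 to 281 CPM in untreated WT libraries. Their members differed in direction: of 5 tested, 3 were called higher and 1, Acp5, lower in untreated R150X against untreated WT cells, and Mmp9 averaged 278 ± 12.9 CPM in untreated R150X and 118 ± 4.68 CPM in untreated WT cells (SD, n = 3 each). The 6 adipocyte markers summed to 38.5 to 44.1 CPM in OxLDL-treated R150X libraries and to 4.36 CPM or less in every other library, with Lep at 0 throughout. Their part in the differences of the sterol genes was not tested. The 8 macrophage markers summed to 19502 to 20882 CPM in OxLDL-treated R150X, 23149 to 24766 CPM in OxLDL-treated WT, 21218 to 22150 CPM in untreated R150X and 19453 to 19756 CPM in untreated WT libraries. Most of that sum was Lyz2, and with OxLDL 5 of the 8 fell and 3 rose in R150X cells, and 3 fell and 3 rose in WT cells. Adgre1 fell at -1.85 in R150X cells and -1.71 in WT cells, Cd14 at -2.24 in R150X cells and -1.61 in WT cells, and Fcgr1 at -1.54 in R150X cells and -1.19 in WT cells. Lyz2 rose at 0.12 in R150X cells and 0.50 in WT cells. Cd68 rose at 0.57 in R150X cells and 0.79 in WT cells, and Mertk at 0.48 in R150X cells and 0.83 in WT cells. Csf1r and Itgam fell in R150X cells and were not called in WT cells.

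The neighbouring genes of the pathway were read from 5 lists of 46 genes, of which 45 were tested. With OxLDL, 18 fell and 9 rose in R150X cells (20.6% of all genes called lower, 18.4% higher), and 15 fell and 12 rose in WT cells (23.1% lower, 22.7% higher). The counts for the single lists are to be read against the same shares. Their median log2 fold change was -0.052 in R150X cells and 0.020 in WT cells, near that of all genes given above. Of the SREBP targets outside the sterol steps, 7 of 10 fell and 1 rose in R150X cells, and 7 fell and 2 rose in WT cells. Fads2, a fatty acid desaturase, fell at -2.19 (SE 0.113, adjusted p = 7.55e-13) in R150X cells and -2.12 (SE 0.113, adjusted p = 1.23e-12) in WT cells. Acss2, which makes acetyl-CoA from acetate, fell at -1.59 (SE 0.119, adjusted p = 4.11e-10) in R150X cells and -0.68 (SE 0.122, adjusted p = 9.45e-05) in WT cells, with an interaction of -0.91 (SE 0.172, adjusted p = 0.00157).

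Of 5 tested genes accessory to the sterol steps, 3 fell and 1 rose in R150X cells, and 2 fell and 2 rose in WT cells. Lbr, a second C14-sterol reductase and nuclear envelope protein, fell at -0.47 (adjusted p = 6.12e-05) in R150X cells and -0.69 (adjusted p = 2.99e-07) in WT cells, and Erg28 at -0.57 (adjusted p = 4.28e-05) in R150X cells and -0.60 (adjusted p = 1.48e-05) in WT cells. Of 7 genes of sterol-regulated degradation in the ER, 2 fell and 1 rose in either genotype, 42.9% of the list, which is near the share of all genes called (39.0% in R150X cells and 45.8% in WT cells). The ubiquitin ligase gene Rnf145 fell at -0.71 (adjusted p = 2.87e-10) in R150X cells and -0.43 (adjusted p = 4.8e-07) in WT cells, and Erlin1 at -0.37 (adjusted p = 0.00223) in R150X cells and -0.36 (adjusted p = 0.00261) in WT cells.

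The branches that leave the pathway before squalene had few calls. Of 12 prenyl, dolichol and ubiquinone genes, 2 fell and 1 rose in R150X cells, and 1 fell and 1 rose in WT cells. Nus1, a subunit of the dolichol-making cis-prenyltransferase, rose in WT cells at 0.33 (adjusted p = 1.02e-05) and was not called in R150X cells at 0.10 (adjusted p = 0.103). Pdss1, of the ubiquinone side-chain synthase, fell in R150X cells at -0.72 (adjusted p = 0.00342) and was not called in WT cells at -0.14 (adjusted p = 0.57).

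Among 11 genes of cholesterol esterification, egress and oxysterols, 5 rose and 4 fell in R150X cells, and 6 rose and 3 fell in WT cells. Lipa, the lysosomal acid lipase that frees cholesterol from lipoprotein esters, had 2766, 2794 and 2642 CPM in OxLDL-treated R150X cells, against 1454, 1612 and 1590.3 CPM in untreated R150X cells. The WT libraries had 2686, 2648 and 2508 CPM with OxLDL, against 1219.7, 1221 and 1177 CPM without. It rose at 0.82 (SE 0.0428, adjusted p = 1.03e-12) in R150X cells and 1.12 (SE 0.0431, adjusted p = 5.4e-15) in WT cells, the opposite direction to the synthesis genes. Gramd1a, which carries plasma membrane cholesterol to the ER, fell at -1.20 (SE 0.0548, adjusted p = 8.81e-14) in R150X cells and -1.22 (SE 0.0551, adjusted p = 7.1e-14) in WT cells. Between untreated cells 17 of the 45 were higher in R150X and 1 lower (18.1% and 14.8% of all genes), and with OxLDL 2 were higher and 1 lower (6.1% and 6.92% of all genes). The interaction was negative and called for 6 of the 45 and positive and called for 0 (5.19% and 3.13% of all genes).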

How the data were processed

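RNA sequencing of 12 libraries was deposited as 1 table of raw read counts per Ensembl gene. Per the submitters' processing notes, the authors used FastQC, HISAT2, featureCounts and DESeq2 with mm10 and GRCm38. Versions, annotation release and strand setting are not given in the sources used here, and reads in overlapping genes cannot be told apart. Per the labels' protocols, RNA was taken with an RNeasy Plus kit. GENCODE M21 (GRCm38) gave symbols for 54409 of 54532 genes. The 27 members, the lists and the tests were chosen with earlier results of these data known.

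Of these genes, 15338 passed filterByExpr (edgeR). Trimmed-mean (TMM) factors ran from 0.969 to 1.05, and 1 coefficient per group was fitted to all 12 with edgeR 4.0.16 under R 4.3.3 (common biological coefficient of variation 0.0608). Its quasi-likelihood test, adjusted by Benjamini-Hochberg at 0.05 over all genes, gave 5 comparisons, and every adjusted p comes from it. Values were printed in every library for the 4 members with the smallest adjusted p in each of the 4 pairwise comparisons, those called in the interaction and Srebf2, and of each other list the 2 genes with the smallest adjusted p were named. On simulated data for OxLDL against untreated R150X cells (14971 genes), 37 of 40 genes changed by 0.5 in either direction and 40 of 40 changed by 1 were called. The changed genes averaged over 5 CPM and all genes shared 1 spread. These rates may therefore be too favourable, and they do not cover Fdps. Near-identical copies (95% identity over 100 bases) were sought with blastn 2.17.0. Alternatives were median-of-ratios and library-size scaling, no filter, DESeq2 1.42.0, fewer groups in the fit, a replicate block and leaving out each library.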

Additional observations from a re-analysis of the deposited data

Results flagged for a closer look

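For 4 members the response to OxLDL differed between R150X and WT cells in the test of the interaction, which is the log2 fold change in R150X cells minus that in WT cells. It was -0.77 for Pmvk, -0.40 for Mvd, -0.39 for Cyp51 and -0.31 for Dhcr7, more negative in R150X cells in each case. The call of Pmvk was lost on leaving out any 1 of 7 libraries (adjusted p of 0.0561 to 0.0841) and that of Mvd any 1 of 6 (0.052 to 0.0768). For both genes these included untreated R150X replicate 1, which stood apart from its group. Mvd was also lost with scaling by library size alone (adjusted p = 0.0887). The call of Dhcr7 was lost with scaling by library size alone (-0.21, adjusted p = 0.147), when low-count genes were kept in (adjusted p = 0.0544) and on leaving out any 1 of 6 libraries (adjusted p of 0.0542 to 0.107).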

How the results depend on the processing

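No member's log2 fold change that was called turned in sign under any alternative tried. The 27 members in 5 comparisons gave 135 values, recomputed 1755 times in all: 1666 stayed on their side of the threshold, 79 called values lost it and 10 uncalled ones gained it. The count of members called in the interaction was 2 with library size alone and 1 to 4 when a library was left out, against 4. Leaving out a library gave counts of 7 to 11 for R150X against WT in untreated cells, against 12, and 1 to 4 with OxLDL, against 5. With OxLDL against untreated, the counts were 21 to 22 in R150X cells, against 22, and 19 to 20 in WT cells, against 20. With the replicate number as a block the counts were 13, 6, 20, 22 and 4 for untreated genotype, OxLDL genotype, OxLDL in WT, OxLDL in R150X and the interaction, with Ggps1 called lower in OxLDL-treated R150X cells (adjusted p = 0.0277) and Sc5d higher in untreated ones (adjusted p = 0.0277). Same-numbered libraries correlated at -0.042 to 0.16, over 0.1 in 2 of 12 pairs, so the numbers are not read as pairs. Library size alone shifted the median of all genes by -0.11 in OxLDL-treated against untreated WT cells, while the members stayed -1.04 below that median. The cause of these changes was not tested. Floors of 3 counts lay at 0.158 to 0.208 CPM and limit Fdps most.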

Other observations

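Outside the members, 6 of the 45 tested genes of the neighbouring lists had a called interaction, all negative (5.19% of all genes were called lower), and 3 of them, which were chosen here after their values were seen, serve the handling of lipoprotein cholesterol. Npc2, the lysosomal protein that hands cholesterol on for export, averaged 969.5 ± 15.6 CPM in OxLDL-treated R150X cells and 1024 ± 69.4 CPM in untreated R150X cells, and 918 ± 4.84 CPM in OxLDL-treated WT cells and 755 ± 14.2 CPM in untreated WT cells (SD, n = 3 each). It rose with OxLDL in WT cells at 0.28 (SE 0.0445, adjusted p = 2.14e-05) and was not called in R150X cells at -0.078 (SE 0.0443, adjusted p = 0.177), and the interaction was -0.36 (SE 0.0628, adjusted p = 0.000721). Cyp27a1, the sterol hydroxylase that makes an oxysterol, rose at 0.55 (SE 0.0752, adjusted p = 3.94e-06) in R150X cells and 1.12 (SE 0.0766, adjusted p = 8.3e-11) in WT cells, with an interaction of -0.57 (SE 0.107, adjusted p = 0.00171). Lipa had an interaction of -0.30 (SE 0.0602, adjusted p = 0.00286). Unlike the members' calls, those of these genes and of Acss2 were not followed under other settings or with libraries left out. Npc2 was at 1104 CPM in untreated R150X replicate 1, which stood apart from its group, against 981 and 987 CPM in replicates 2 and 3. In untreated cells each of the 3 was higher in R150X than in WT, Npc2 at 0.44 (SE 0.0445, adjusted p = 1.86e-07), Cyp27a1 at 0.41 (SE 0.0791, adjusted p = 0.000482) and Lipa at 0.36 (SE 0.0427, adjusted p = 1.39e-06).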
